A study of Rattus norvegicus with 15 samples.

Results

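The Nduf genes encode the subunits and assembly factors of respiratory complex I, and 36 of them were measured among the 14506 genes of 15 Affymetrix rat gene arrays. A gene was a member when its platform symbol began with Nduf. Rows with a single symbol were used, and of several probe sets of a gene the set with the highest mean over the 15 arrays was taken. The members were 6 core subunits, 26 accessory subunits, 2 assembly factors, Ndufa4 and Ndufs6-ps1. Ndufa4 was first listed with complex I and is now placed with complex IV. Ndufs6-ps1 is annotated as a pseudogene in RefSeq, which lists Ndufs6 as a separate gene. Its probe sets may measure the subunit gene Ndufs6, the pseudogene or both.

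Each array held RNA of freshly isolated primary rat hepatocytes that were seeded in a collagen-coated microfluidic biochip, given 24 h to adhere and then perfused at 25 µl/min and 32 °C. The perfusion medium held insulin, transferrin and selenium in every group. Flutamide, a nonsteroidal antiandrogen with known liver toxicity, was present at 10 µM (6 arrays) or 100 µM (4 arrays) for 24 h, and the controls (5 arrays) received its solvent DMSO. The sample titles number the biochips 10 to 16, called run 1 here, and 20 to 27, called run 2. Run 1 held 2 DMSO, 3 10 µM and 2 100 µM arrays and run 2 held 3, 3 and 2. The labels give no strain, sex, age or number of animals and do not say what the number runs stand for, so the p-values reflect no more than the spread among these arrays. In bulk RNA a lower level can come from fewer cells of a type or from less RNA per cell, and these cannot be told apart.

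Complex I takes electrons from NADH, passes them along a chain of iron-sulphur clusters to ubiquinone and pumps protons across the inner mitochondrial membrane. Its core subunits carry the flavin, the clusters and the proton channels, and the accessory subunits surround and stabilise that core. The complex is built from modules: the N module oxidises NADH, the Q module reduces ubiquinone, and the proximal and distal pump modules form the membrane arm. Assembly factors hold the intermediates together and are absent from the finished enzyme. Hepatocytes rely on complex I for the oxidation of fatty acids and amino acids. Flutamide is known to inhibit complex I in liver mitochondria, and the comparison by dose asks whether transcript levels of its parts differed after exposure.

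The short sequences shown first are those of a feature that the choice of members did not use. RefSeq promoter windows of assembly GRCr8, 250 bases before to 50 bases after the annotated start, matched 33 of the 36 genes, and 4 motifs were searched as exact letters on both strands. The YY1 letters AAGATGGC were present in 7 of the 33 windows (21.2%), against 4.33% of the 11950 array genes with a window and 3.17% of all 33469 windows. In each of these 7 genes the letters lay on the gene's own strand after the start, a placement found in 1.96% of the array genes. YY1 is a zinc finger factor that binds many promoters of mitochondrial genes. The NRF1 letters GCATGCGC, of a factor named for respiratory genes, were in 2 windows (6.06%, against 3.89% of array genes). The GABP/ETS letters CCGGAAG were in 7 windows (21.2% against 13.1%), and the ERRalpha letters TCAAGGTCA in none (0.0% against 0.234%). The windows below cover 6 of the YY1 matches, with the letters in capitals and 10 bases on each side, written along the gene.
Ndufa3: gtccaagaccAAGATGGCtgctagtaag
Ndufb8: ggagaaggtgAAGATGGCggcgtcccgg
Ndufs4: tgcccacaggAAGATGGCggcggtctca
Ndufa9: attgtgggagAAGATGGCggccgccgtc
Ndufs7: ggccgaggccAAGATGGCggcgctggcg
Ndufa6: cttccttagcAAGATGGCggccgcggcc
They lie on the minus strand at chr1:74515525-74515552, chr1:253362898-253362925, chr2:47794893-47794920, chr4:161374143-161374170, chr7:10110477-10110504 and chr7:115750285-115750312, in the order printed. The first letter of the match falls 5 (Ndufs4 and Ndufs7) to 22 (Ndufb8) bases into the transcript. The seventh match was in Ndufa2. The searched letters contain ATG, and whether that ATG is the start codon was not tested. Both NRF1 matches are shown next, with the motif in capitals.
Ndufa6: ccgcggtagaGCATGCGCatggcagagc
Ndufa11: tgcgctgtgcGCATGCGCatgcgcacag
The Ndufa6 match lies at chr7:115750404-115750431 on the minus strand, and the Ndufa11 match, which overlaps further copies on both strands, at chr9:1637509-1637536 on the plus strand. Ndufa6 was the gene that held the letters of NRF1, GABP/ETS and YY1 together. A match describes letters and shows no binding.

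The samples carried the transcripts of hepatocytes. Over 10 hepatocyte markers the mean log2 value of an array lay between 10.42 and 11.18, and albumin lay between 12.66 and 13.02. Other markers of the list were dimmer: Cps1 spanned 6.5 to 8.7, Hnf4a 7.4 to 8.9 and Cyp2e1 7.3 to 10.7. The lowest values of Cps1 and Cyp2e1 were at 100 µM and that of Hnf4a at 10 µM. Macrophage markers (13 of 14 measured) averaged 5.75 to 6.76 in DMSO, 5.52 to 7.22 at 10 µM and 5.56 to 6.26 at 100 µM. The highest of these means belonged to 10 µM array 23. That array correlated with the others at a median of 0.962 and had a quality weight of 0.205, and 100 µM array 15 had 0.978 and 0.427. Stellate, endothelial, cholangiocyte and lymphocyte markers averaged between 4.39 and 5.64 in every array. Differences below are log2 differences from a limma fit over all genes with the run as a block, given with their standard error (SE). Genes count as called where the p adjusted over all genes by Benjamini-Hochberg was below 0.05.

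After 24 h at 10 µM flutamide no Nduf gene was called in the limma fit, as was the case for all genes (background 0.0%). Of the 36 genes 23 lay below DMSO and 13 above it, with a median difference of -0.03, against 50.9% lower and a median of -0.003 over all genes. At an unadjusted p under 0.05 there was 1 higher gene, Ndufa7, and 0 lower genes, where 3.83% and 3.82% of all genes passed in those directions. The 95% interval of the difference stayed within 1.5-fold either way for 31 of the 36 genes, against 81.2% of all genes. Ndufs1, Ndufs3, Ndufa9, Ndufb6 and Ndufaf1 had wider intervals.

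At 100 µM no Nduf gene was called either (background 0.0%), and none passed an unadjusted p under 0.05, where 3.43% of all genes were higher and 3.42% lower at that limit. Of the 36 genes 22 were lower, with a median difference of -0.05, beside 44.3% lower and a median of 0.02 over all genes. The interval stayed within 1.5-fold for 32 of 36 genes, against 78.5% of all genes. Both dose comparisons share the same DMSO arrays.

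**Figure D1:**
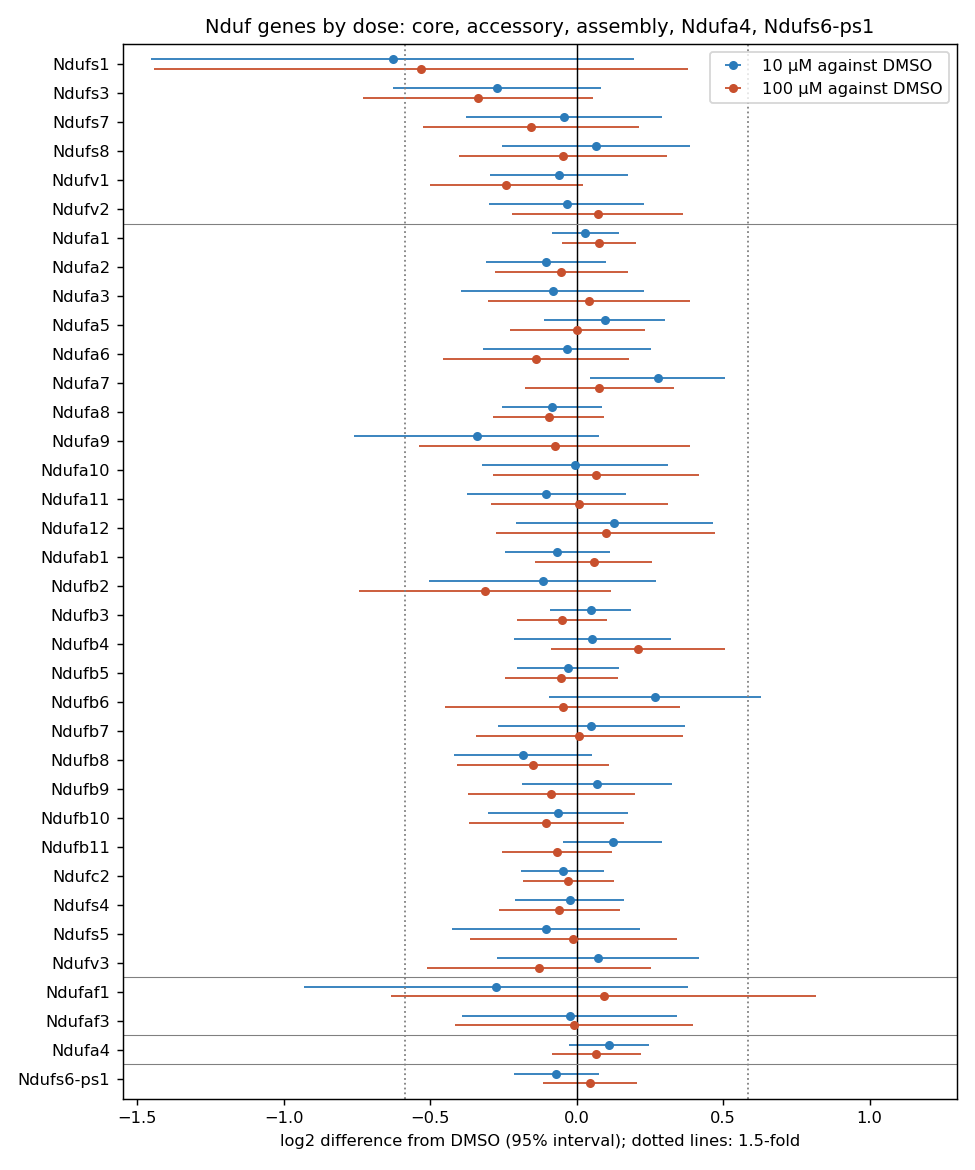
Log2 difference from DMSO with its 95% interval for each of the 36 Nduf genes at 10 µM (blue) and 100 µM (red), with lines between core subunits, accessory subunits, assembly factors, Ndufa4 and Ndufs6-ps1, and dotted lines at 1.5-fold. Most points lie close to 0, the points of Ndufs1 (-0.63 and -0.53) lie farthest to the left with the widest intervals, and Ndufa7 at 10 µM (0.28) has an interval that excludes 0.

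The counts of lower genes depended on single arrays, and leaving out each array in turn gave 17 to 25 lower genes at 10 µM and 16 to 28 at 100 µM. Without 10 µM array 23 the median difference at 10 µM was 0.01 with 17 of 36 lower, and without 100 µM array 15 the median at 100 µM was 0.01 with 16 lower. With both arrays left out, a pair chosen after the values were seen, all 36 intervals at 10 µM lay within 1.5-fold. The differences then ran from -0.25 to 0.30. With every array kept 81.2% of all genes lay within that limit, and their share without both arrays was not compared. The spread of the median over Nduf genes between arrays of a group was 0.08 (SD).

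Differences between the classes were not tested. At 10 µM the core subunits had a median difference of -0.05 (5 of 6 lower), the accessory subunits -0.03 (15 of 26 lower) and the assembly factors -0.15 (both lower). At 100 µM the medians were -0.20 (5 of 6 lower), -0.05 (16 of 26 lower) and 0.04 (1 of 2 lower). No class held a called gene. With arrays 23 and 15 both left out, 4 of 6 core subunits were lower at each dose, with medians of -0.04 and -0.15.

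By module, the N module had 5 of 7 genes lower at 10 µM and at 100 µM, with medians of -0.03 and -0.06. The Q module had 5 of 8 lower at each dose, with medians of -0.04 and -0.06. In the proximal pump module 6 of 7 genes were lower at 10 µM and 3 of 7 at 100 µM, with medians of -0.08 and 0.01. The distal pump module had 4 of 10 lower at 10 µM and 8 of 10 at 100 µM, with medians of 0.05 and -0.06. No gene of either pump module was called, and without array 23 the proximal module had 4 of 7 genes lower at 10 µM (median -0.02).

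Ndufs1, the largest core subunit and a carrier of iron-sulphur clusters in the N module, had the lowest difference at both doses. In DMSO its log2 values were 9.25, 9.19, 9.38, 9.61 and 9.46. At 10 µM the lowest, median and highest values were 6.88, 9.09 and 9.52, and at 100 µM the values were 8.04, 9.45, 8.86 and 9.14. The groups overlapped, and the low values came from array 23 at 10 µM and array 15 at 100 µM. The differences were -0.63 (SE 0.38, limma adjusted p 0.76) and -0.53 (SE 0.42, adjusted p 0.831), and without both arrays they were -0.25 (SE 0.13) and -0.22 (SE 0.15).

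Ndufs3, a core subunit of the Q module, was the Nduf gene whose 100 µM arrays all lay below the DMSO arrays. Its DMSO values were 9.34, 9.31, 9.22, 9.09 and 9.04, and the 100 µM values were 8.93, 8.86, 8.85 and 8.86. Non-overlap in this direction was found for 0.931% of all genes, and non-overlap upward, which no Nduf gene showed, for 1.13%. The difference of -0.34 (SE 0.18) had a limma adjusted p of 0.775. It was -0.43 within run 1 and -0.26 within run 2, and -0.35 without arrays 23 and 15. At 10 µM Ndufs3 spanned 8.32 to 9.57 with a median of 8.87, and overlapped with DMSO.

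Ndufv1, the core subunit that binds NADH and the flavin, had the lowest p among Nduf genes at 100 µM. Its values were 8.70, 8.66, 8.86, 9.14 and 8.80 in DMSO and 8.36, 8.66, 8.70 and 8.63 at 100 µM. The ranges met near 8.66 to 8.70, so the groups overlapped. The difference was -0.24 (SE 0.12, limma adjusted p 0.758) at 100 µM and -0.06 (SE 0.11) at 10 µM.

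The other core subunits had differences of -0.16 to 0.07. Ndufv2, which carries the iron-sulphur cluster beside the flavin, differed by -0.03 (SE 0.12) at 10 µM and by 0.07 (SE 0.14) at 100 µM. Ndufs7, which carries the last cluster before ubiquinone, spanned 7.32 to 8.12 in DMSO, 7.44 to 8.12 at 10 µM and 7.44 to 7.79 at 100 µM. Its differences were -0.04 (SE 0.16) and -0.16 (SE 0.17). Ndufs8, another cluster carrier of the Q module, spanned 7.16 to 7.64 in DMSO, 7.13 to 7.83 at 10 µM and 6.83 to 7.63 at 100 µM, where 6.83 was array 15. Its differences were 0.07 (SE 0.15) and -0.05 (SE 0.17), and none of these genes passed the test.

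**Figure D2:**
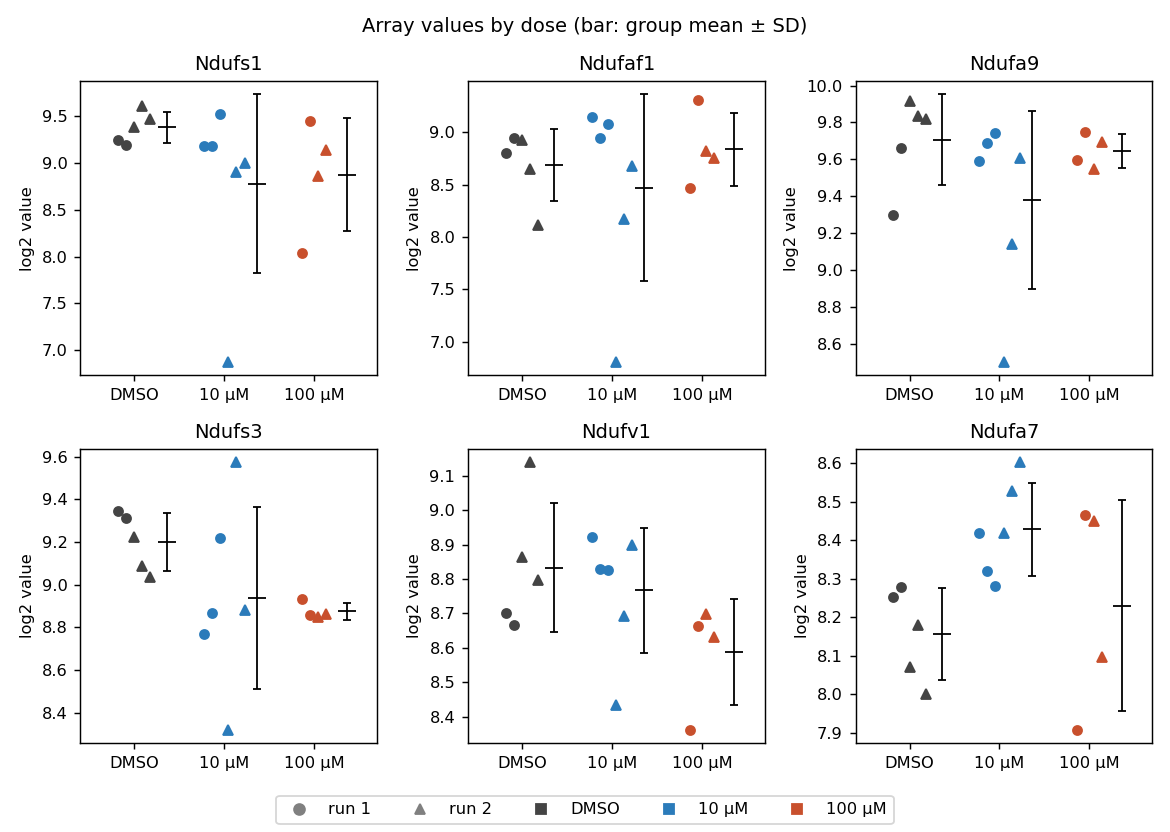
Log2 values of 6 Nduf genes in each array by dose group, with circles for run 1 and triangles for run 2, and the group mean ± SD beside each group. Array 23 at 10 µM is the lowest point of Ndufs1 (6.88), Ndufaf1 (6.81) and Ndufa9 (8.50), the 100 µM values of Ndufs3 (8.85 to 8.93) lie below all DMSO values, and the 10 µM values of Ndufa7 lie at or above the DMSO range.

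Among accessory subunits, Ndufa7 of the Q module had the lowest p at 10 µM. It measured 8.25, 8.28, 8.07, 8.18 and 8.00 in DMSO and 8.28 to 8.60 (median 8.42) at 10 µM, so the groups did not overlap, by a margin smaller than the rounding. Such non-overlap was found upward for 0.414% of all genes and downward, where no Nduf gene showed it, for 0.221%. The difference was 0.28 (SE 0.11, limma adjusted p 0.548), with 0.08 within run 1 and 0.43 within run 2. At 100 µM it spanned 7.91 to 8.46 and overlapped with DMSO, with a difference of 0.08 (SE 0.12).

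Ndufa9, an accessory subunit of the Q module near the ubiquinone site, was lower at 10 µM by a difference of -0.34 (SE 0.20, limma adjusted p 0.739). Its DMSO values were 9.30, 9.66, 9.91, 9.84 and 9.82, and at 10 µM the lowest, median and highest were 8.50, 9.60 and 9.74. The lowest value was again array 23, and without that array the difference was -0.15 (SE 0.13). Ndufb8, of the distal pump module, differed by -0.18 (SE 0.11) at 10 µM and -0.15 (SE 0.12) at 100 µM. It spanned 9.11 to 9.77 in DMSO, 8.89 to 9.34 at 10 µM and 9.05 to 9.28 at 100 µM, and its highest DMSO value was array 10.

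At 100 µM the next accessory subunits by p belonged to the distal pump module. Ndufb2 measured 9.45, 9.58, 9.34, 9.61 and 9.30 in DMSO and 9.66, 9.31, 8.79 and 8.90 at 100 µM. Both low values were run 2 arrays, and the difference of -0.31 (SE 0.20, limma adjusted p 0.796) was -0.03 within run 1 and -0.57 within run 2. Ndufb4 measured 9.96, 10.03, 9.63, 9.78 and 9.82 in DMSO and 9.95, 9.95, 10.16 and 10.12 at 100 µM, which overlap. Its difference of 0.21 (SE 0.14, limma adjusted p 0.802) was -0.05 within run 1 and 0.40 within run 2, so its sign differed between the runs. Ndufb4 has 11 named copies (pseudogenes and Ndufb4-like genes) in RefSeq, which the probes may share.

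The other accessory subunits gave small differences. Ndufa1, a small membrane subunit, was the gene with the least residual spread (SD 0.04), with 12.27 to 12.36 in DMSO, 12.24 to 12.42 at 10 µM and 12.32 to 12.46 at 100 µM. Its intervals ran from -0.09 to 0.14 at 10 µM and from -0.05 to 0.20 at 100 µM. Ndufb3 and Ndufc2 of the membrane arm, and the mitochondrial acyl carrier protein Ndufab1, stayed within 0.07 of DMSO in size at both doses, with SEs of 0.07 to 0.09. Ndufa2, Ndufa3, Ndufa5, Ndufa6, Ndufa8, Ndufa11, Ndufb5, Ndufb7, Ndufb9, Ndufb10, Ndufs5 and Ndufv3 had differences from -0.10 (Ndufs5) to 0.10 (Ndufa5) at 10 µM and from -0.14 (Ndufa6) to 0.04 (Ndufa3) at 100 µM. Ndufb6 of the distal pump module differed by 0.27 (SE 0.17) and -0.05 (SE 0.19), Ndufb11 by 0.12 and -0.07, Ndufa12 by 0.13 and 0.10 and Ndufs4 by -0.02 and -0.06. Ndufv3 has a further probe set that gave the opposite sign at both doses (-0.03 against 0.07, and 0.09 against -0.13), while further sets of Ndufb4, Ndufs5 and Ndufs6-ps1 gave the same sign as the sets used. Of the 36 genes 18 have named copies in RefSeq, and their probe sets may share signal with those copies.

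The assembly factors were not called at either dose. Ndufaf1, which acts in building the membrane arm, measured 8.80, 8.95, 8.93, 8.65 and 8.11 in DMSO. At 10 µM it spanned 6.81 to 9.15 with a median of 8.81, and at 100 µM it measured 8.47, 9.31, 8.82 and 8.76. The low value of 6.81 was array 23, and the difference at 10 µM was -0.28 (SE 0.31) with that array and 0.05 (SE 0.18) without it. Ndufaf3, which acts with the Q module, spanned 6.42 to 6.79 in DMSO, 5.93 to 7.11 at 10 µM and 6.21 to 6.87 at 100 µM, with differences of -0.02 (SE 0.17) and -0.01 (SE 0.19).

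Ndufa4 measured 11.24, 11.26, 11.11, 11.26 and 11.02 in DMSO, 11.25 to 11.39 (median 11.28) at 10 µM and 11.25, 11.34, 11.16 and 11.25 at 100 µM. The groups overlapped, and the differences were 0.11 (SE 0.06, limma adjusted p 0.741) and 0.07 (SE 0.07, adjusted p 0.891). Ndufs6-ps1 spanned 10.63 to 10.86, 10.53 to 10.78 and 10.69 to 10.91 in DMSO, 10 µM and 100 µM, with differences of -0.07 (SE 0.07) and 0.05 (SE 0.07).

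The step from 10 to 100 µM also gave no called Nduf gene (background 0.0%). Over the 36 genes 20 were lower at 100 µM, with a median of -0.03 against 0.02 over all genes, and leaving out each array in turn gave 15 to 24 lower genes. Without 10 µM array 23 there were 24 lower genes (median -0.07), without 10 µM array 24 there were 15 (median 0.02), and without 100 µM array 15 there were 16 (median 0.02). An unadjusted p under 0.05 was reached by 1 lower gene, Ndufb11, and by 0 higher genes, where 2.34% and 2.65% of all genes passed. Ndufb11, an accessory subunit of the distal pump module encoded on the X chromosome, spanned 9.36 to 9.85 (median 9.57) at 10 µM and measured 9.36, 9.27, 9.62 and 9.45 at 100 µM. Those ranges overlapped, and the difference was -0.19 (SE 0.08, limma adjusted p 0.93). Ndufb3 was the gene whose 100 µM values, 11.06 to 11.10, all lay below those at 10 µM, 11.10 to 11.28, by less than the rounding. That non-overlap was seen downward for 0.324% of all genes and upward, with 0 Nduf genes, for 0.503%. Ndufb6 differed by -0.31 (SE 0.18), or -0.10 (SE 0.15) without array 15, which held its lowest value of 8.48. Ndufa7 differed by -0.20 (SE 0.11) and Ndufs6-ps1 by 0.12 (SE 0.07).

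Single arrays set the largest departures. In array 23, Ndufs1, Ndufaf1 and Ndufa9 lay more than 1 log2 unit below the median of the other 10 µM arrays, which is 8.33% of the 36 genes against 7.83% of all genes beyond that distance in either direction. In array 15, Ndufs1 alone did so (2.78% against 3.22% of all genes). No Nduf gene lay that far out in the other 13 arrays. In array 23, 12 of 13 macrophage, 10 of 11 stellate, 7 of 7 endothelial, 5 of 6 lymphocyte, 3 of 5 cholangiocyte and 9 of 10 hepatocyte markers were above their median over the other arrays. DMSO arrays 10 and 21 also had 12 of 13 macrophage markers above it. The part of these cell markers in the Nduf values was not tested.

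**Figure D3:**
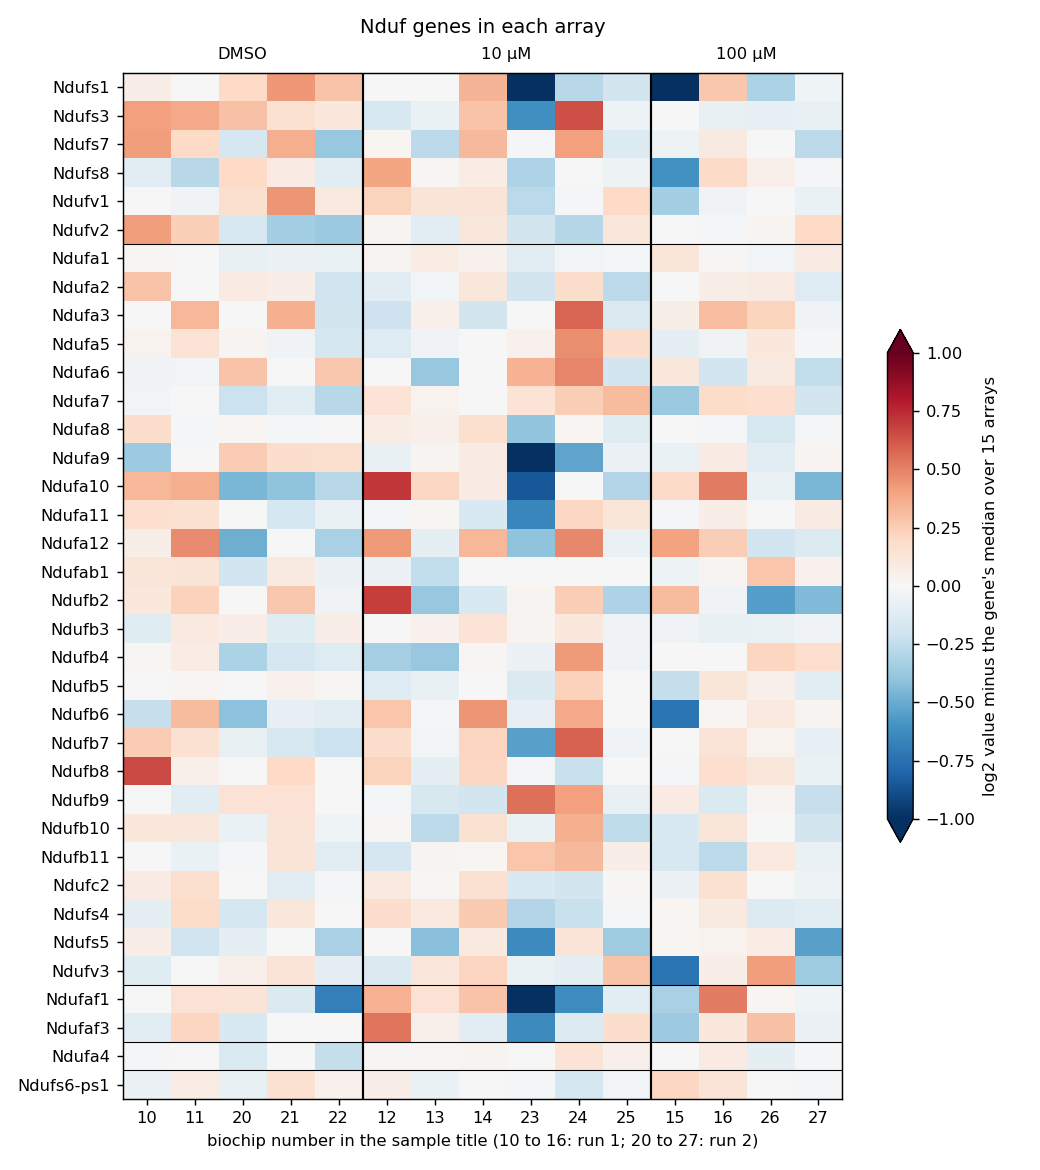
Log2 value of each of the 36 Nduf genes (rows) in each of the 15 arrays (columns, by dose group and biochip number) minus the gene's median over the arrays, with colours saturating at 1 log2 unit. The darkest blue cells are Ndufs1 in arrays 23 and 15 and Ndufa9 and Ndufaf1 in array 23, and no dose group forms a block of a single colour.

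After removal of dose and run, pairs of Nduf genes had a median correlation of 0.19 over the 15 arrays (630 pairs). The median was 0.12 without array 23, and pairs of complex II to V genes had 0.24 both ways. An Nduf gene with every measured gene had a median of -0.02. The highest pairs were Ndufb7 with Ndufs3 (0.93, or 0.87 without array 23), Ndufaf1 with Ndufs1 (0.90, or 0.65 without it) and Ndufaf1 with Ndufv1 (0.85, or 0.70 without it). The genes share arrays, normalization and RNA quality, so these values describe the arrays only.

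Within runs the dose differences often had opposite signs. At 10 µM, 15 of 36 Nduf genes had the same sign in both runs (41.7%, against 43.1% of all genes), and at 100 µM 19 did (52.8%, against 52.1%). For the step between doses the number was 18 (50.0%, against 48.5%). The shares among Nduf genes were thus close to those over all genes. Within run 1 all 6 core subunits were lower at 100 µM (median -0.31), and within run 2 5 of 6 were (median -0.17). Of the accessory subunits 18 of 26 were lower in run 1 and 12 of 26 in run 2. Over all genes the medians at 100 µM were 0.022 and 0.015 in these runs. The 100 µM arrays of run 1 were arrays 15 and 16 alone. For Ndufs1 and Ndufs8 array 15 was low (8.04 and 6.83), whereas array 16 (9.45 and 7.63) lay above the run 1 DMSO arrays.

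**Figure D4:**
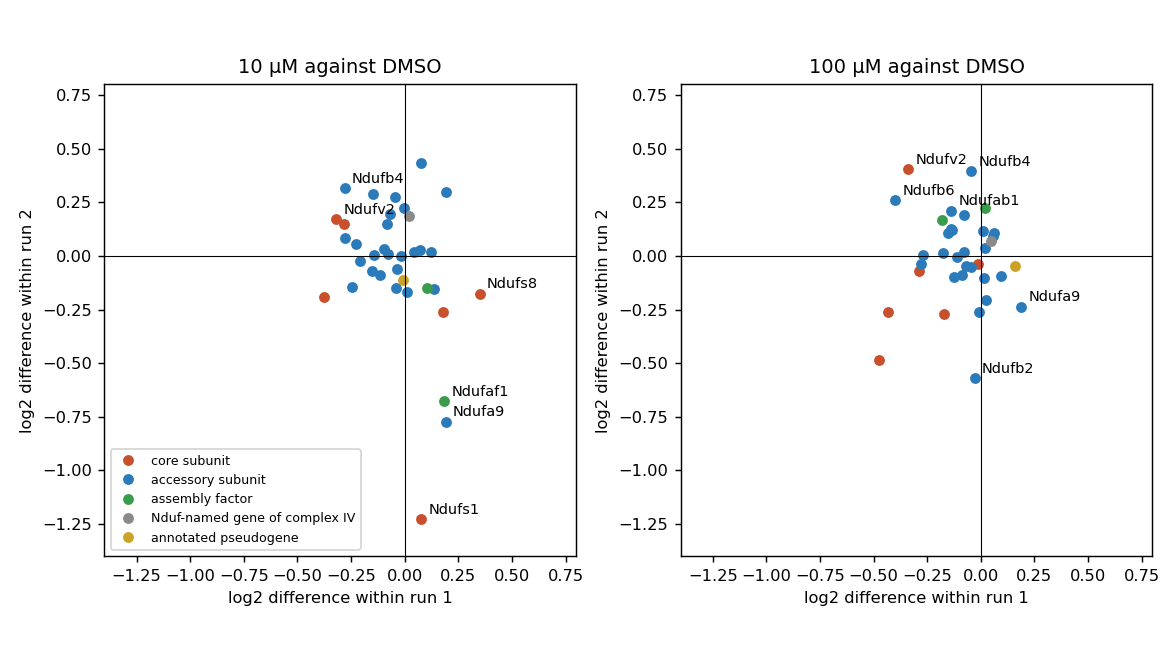
Log2 difference from DMSO within run 1 (horizontal) against that within run 2 (vertical) for the 36 Nduf genes, at 10 µM (left) and 100 µM (right), coloured by class, with the 6 genes that differ most between the runs named in each panel. At 10 µM Ndufs1 (0.08 and -1.23), Ndufa9 (0.19 and -0.77) and Ndufaf1 (0.19 and -0.68) lie below 0 in run 2 and above it in run 1, and at 100 µM Ndufv2 (-0.34 and 0.40) lies at opposite sides of 0.

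A test of whether the dose difference itself differed between runs called no Nduf gene at 10 µM (background 0.0414%) or at 100 µM (background 0.00689%). At 10 µM 3 genes (Ndufa5, Ndufb4 and Ndufv2) had a more positive difference in run 2 at an unadjusted p under 0.05, where 3.56% of all genes did, and 2 (Ndufa9 and Ndufv1) a more negative one, where 6.68% did. At 100 µM 1 gene, Ndufv2, was more positive (2.21% of all genes) and 0 more negative (3.87%). For Ndufa9 the 10 µM difference was lower in run 2 by an interaction of -0.97 (SE 0.32, limma adjusted p 0.366). Without 10 µM array 25 that interaction was -1.23 with an adjusted p of 0.0472, in a fit that called 116 of all genes (0.8%) against 6 with all arrays. The run 2 values of Ndufa9 at 10 µM were 8.50 in array 23, 9.14 in array 24 and 9.61 in array 25. The fit without array 25 thus left out the highest of them and kept the low value of array 23. Over all alternatives the Ndufa9 interaction ran from -1.23 to -0.675 and its adjusted p from 0.0472 to 0.7. Ndufb4 (0.59, SE 0.21, adjusted p 0.389) and Ndufa5 (0.43, SE 0.17, adjusted p 0.436) ran the other way at 10 µM. At 100 µM the interactions after Ndufv2 by p were Ndufab1 (0.35, SE 0.17), Ndufb4 (0.44, SE 0.23) and Ndufb6 (0.66, SE 0.35), each with an adjusted p over 0.8.

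Ndufv2 had the lowest interaction p of the Nduf genes at 100 µM. Its DMSO values were 9.37 and 9.19 in run 1 and 8.79, 8.61 and 8.58 in run 2. At 100 µM they were 8.95 and 8.93 in run 1 and 8.98 and 9.15 in run 2. The lowest of these values were the run 2 DMSO arrays. Over the 36 Nduf genes the DMSO arrays of run 2 all lay below those of run 1 for 12 genes (14.9% of all genes) and all above them for 5 (15.6% of all genes), a count made after the values were seen and not tested. The interaction was 0.74 (SE 0.20, limma adjusted p 0.622) at 100 µM and 0.49 (SE 0.18, adjusted p 0.405) at 10 µM.

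Between the runs, with dose in the model, 1 Nduf gene was called, Ndufa10, where 0.545% of all genes were. Ndufa10, an accessory subunit of the membrane arm with a kinase-like fold, fell 1.61-fold from run 1 to run 2, a difference of -0.69 (SE 0.13, limma adjusted p 0.0265). The run 1 arrays measured 9.84 and 9.87 in DMSO, 10.21, 9.71 and 9.59 at 10 µM and 9.70 and 10.02 at 100 µM. The run 2 arrays measured 9.05, 9.10 and 9.23 in DMSO, 8.66, 9.50 and 9.21 at 10 µM and 9.44 and 9.05 at 100 µM. Every run 2 array lay below every run 1 array. That non-overlap was found downward for 0.407% of all genes and upward, where no Nduf gene showed it, for 0.207%.

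The Ndufa10 difference was -0.73 among DMSO arrays, -0.71 among 10 µM arrays and -0.62 among 100 µM arrays, with limma adjusted p of 0.0778, 0.583 and 0.899, beside a range of 0.00993 to 0.899 over all alternatives. Leaving out each array in turn gave -0.61 to -0.76 with adjusted p from 0.0167 to 0.0673. The call was lost without DMSO arrays 10, 11, 20 or 21, 10 µM arrays 12 or 13, or 100 µM arrays 16 or 27. A further probe set, annotated to both Ndufa10 and Ndufa10l1, differed by -0.33, with overlapping ranges of 8.96 to 9.48 in run 1 and 8.02 to 9.16 in run 2. By dose Ndufa10 differed by -0.01 (SE 0.15) and 0.07 (SE 0.16).

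**Figure D5:**
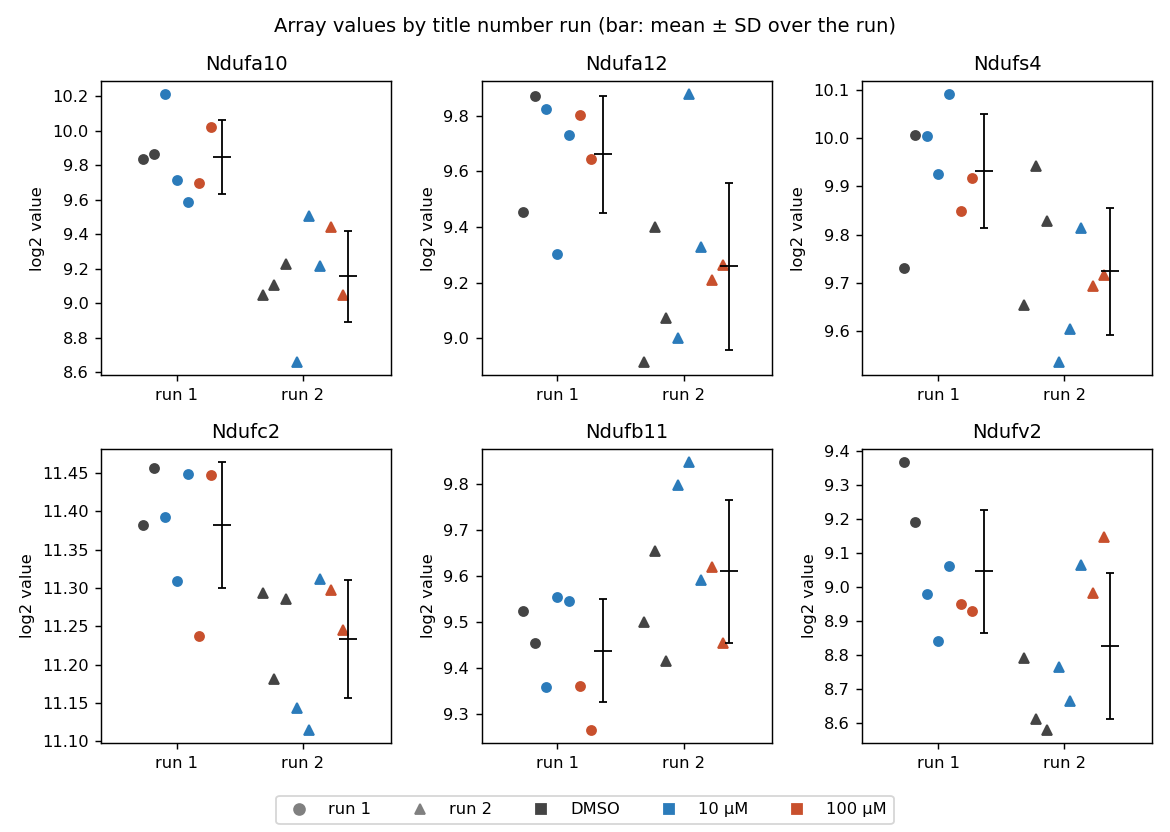
Log2 values of 6 Nduf genes in the 7 run 1 arrays (circles) and the 8 run 2 arrays (triangles), coloured by dose group, with the mean ± SD of each run. Ndufa10 values are 9.59 to 10.21 in run 1 and 8.66 to 9.50 in run 2 without overlap, whereas the other 5 genes overlap between the runs.

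Over all 36 genes 24 were lower in run 2, with a median of -0.08 against 49.2% lower and 0.002 over all genes, and without array 23 the numbers were 20 and -0.01. Leaving out each array in turn gave 20 to 26 lower genes. At an unadjusted p under 0.05, 6 genes were lower (Ndufa8, Ndufa10, Ndufa12, Ndufaf1, Ndufc2 and Ndufs4) and 1 was higher (Ndufb11), where 6.23% and 4.73% of all genes passed. Ndufa12, an accessory subunit of the N module, differed by -0.39 (SE 0.13, limma adjusted p 0.272), with run 1 at 9.30 to 9.87 and run 2 at 8.91 to 9.88. Ndufs4, an N module subunit added late in assembly, differed by -0.21 (SE 0.07, adjusted p 0.286), and Ndufc2 by -0.15 (SE 0.06, adjusted p 0.317). Ndufaf1 differed by -0.60 (SE 0.26), or -0.36 (SE 0.16) without array 23. In the proximal pump module 6 of 7 genes were lower in run 2, and in the Q module 3 of 8.

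The 7 genes with the YY1 letters after the start were all lower at 10 µM (median -0.08), and 6 of 7 were lower at 100 µM (median -0.07). Among the other 29 Nduf genes 16 were lower at each dose, with medians of -0.02 and -0.01. Without array 23, 6 of the 7 remained lower at 10 µM with a median of -0.08. Of the other 29 Nduf genes 11 were lower in that fit, with a median of 0.05. Of all 234 array genes with the letters in that place 60.3% were lower at 10 µM, and 50.0% without array 23. At 100 µM, with all arrays, 53.4% of those 234 genes were lower. None of the 7 genes was called, and the count was noticed after the values were seen and was not tested.

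The rest of the respiratory chain showed no called gene at either dose. Of the complex II to V subunits 37 of 41 were measured, with medians of -0.02 at 10 µM and -0.04 at 100 µM and 20 and 23 genes lower. Their lowest p belonged to Atp5mc1, a gene of the membrane ring of ATP synthase, which differed by -0.44 (SE 0.09, limma adjusted p 0.285) and -0.31 (SE 0.10, adjusted p 0.649). Other complex I assembly factors (8 of 13 measured) had medians of -0.19 and -0.05. Tmem126b, which acts in building the membrane arm, differed by -0.62 (SE 0.25, adjusted p 0.556) at 10 µM, Acad9 by -0.67 (SE 0.32) and Tmem186 by 0.26 (SE 0.12). For 7 of these 8 factors the 10 µM difference was more negative in run 2, which holds array 23, than in run 1. Their median interaction was -0.36, against 0.02 and 46.9% more negative over all genes. Fits without array 23 are not given for them.

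Enzymes that hand electrons to ubiquinone by other routes were all 8 measured. At 10 µM 7 of them were lower and at 100 µM all 8, beside 50.9% and 44.3% of all genes. The medians were -0.18 at each dose. The smallest of these differences at 100 µM was -0.02 for Sqor, which oxidises sulphide, and its group means were 10.29 in DMSO and 10.34 at 100 µM, so its sign rests on the run block. Etfdh, which passes electrons from fatty acid oxidation to ubiquinone, differed by -0.47 (SE 0.12, limma adjusted p 0.51) at 100 µM. Prodh, the proline dehydrogenase, differed by -0.35 (SE 0.13) and Etfb, a subunit of the electron transfer flavoprotein, by -0.28 (SE 0.11).

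Of the regulators of mitochondrial biogenesis 14 of 15 were measured and 0 called, with medians of -0.06 and -0.01. Ppargc1a, the coactivator that drives respiratory genes, differed by -0.26 (SE 0.26) at 10 µM and -0.88 (SE 0.29, limma adjusted p 0.649) at 100 µM. Tfb1m, a methyltransferase of mitochondrial ribosomal RNA, differed by -0.95 (SE 0.36) at 100 µM, and Gabpa, the DNA-binding subunit of GABP, by 0.30 (SE 0.13). None of the 14 passed the test at either dose.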

How the data were processed

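The log2 values deposited by the authors form 1 table of 29214 probe sets and 15 arrays, and the submitters' processing notes name RMA and Partek. Software versions and settings were not given in the sources used here. Deposited values were used without further normalization. The platform annotation gave 15310 probe sets a single symbol, of which 15279 were matched to RefSeq genes of assembly GRCr8 for current names, and 323 with several symbols were left out. Of the 527 genes with several probe sets, the set of highest mean was kept. RefSeq windows of that assembly gave the promoter sequences and their coordinates. No column belonged to another series (0 such columns). Arrays have no read depth, and their number limits the precision.

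limma 3.58.1 in R 4.3.3 (lmFit and eBayes) was fitted to all 14506 genes and 15 arrays with dose group and run as terms (11 residual degrees of freedom), and p-values were adjusted over all genes. Interactions were fitted on the 6 cells of group and run. Named genes are the core subunits, the assembly factors, Ndufa4 and the 4 genes of lowest p per comparison, and up to 3 per other list. Members and lists were chosen with earlier results of these data known. Further Nduf genes, 1 by the rule among them, are not reported here.

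The alternatives were no run block, each run or dose group alone, renewed quantile normalization, array quality weights, the mean of probe sets, dim genes left out (mean log2 under 5), each array left out and, chosen after seeing the data, arrays 23 and 15 left out together. On simulated data with 14506 genes, 62.7% of 67 genes changed 1.5-fold were recovered for 10 µM and 53.7% for 100 µM. For 67 genes changed 2-fold the shares were 86.6% and 91%, and for 66 changed 4-fold 100% and 98.5%. All these genes were changed in the same simulated set, whereas in the measured data 0 of 14506 genes were called at either dose. The shares therefore do not give the chance of calling a lone Nduf gene changed 1.5-fold. Whether the simulated spread matched that of the arrays, with arrays 23 and 15 among them, was not tested.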

Additional observations from a re-analysis of the deposited data

Results flagged for a closer look

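In 108 combinations of Nduf gene and dose group, 8 held an array that stood apart from the rest of its group, where chance alone gives about 5.4 (1 in 20). At 10 µM, Ndufs1 in array 23 measured 6.875 with the next value at 8.906. In the same group Ndufab1 in array 13 measured 8.515 below 8.697, and Ndufa3 in array 24 measured 8.534 above 8.001. At 100 µM, Ndufb6 in array 15 measured 8.482 below 9.229, and Ndufs3 in that array measured 8.932 above 8.86. Also at 100 µM, Ndufs5 in array 27 measured 8.771 below 9.328, and Ndufa8 in array 26 measured 8.044 below 8.189. In DMSO, Ndufa8 in array 10 measured 8.384 above 8.225. Array 15 held 2 of the 8 values and the arrays 10, 13, 23, 24, 26 and 27 held 1 each.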

How the results depend on the processing

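Of 266 other values of the counts and medians, 251 were scored as unchanged. None was scored as reversed, although the Nduf median changed sign in several fits. With single arrays left out it ran from -0.061 to 0.012 at 10 µM and from -0.069 to 0.014 at 100 µM. For the step between doses it ran from -0.067 to 0.022. Of 532 values of single named genes, 518 kept their direction and their side of the threshold. The count of called Nduf genes stayed 0 in the 3 dose comparisons under every alternative that was run. Over all 14506 genes at most 7 were called in any of these fits, so a count of 0 does not set the Nduf genes apart. For Ndufa9 at 10 µM, run 1 alone gave 0.192, and for Ndufb4 at 100 µM it gave -0.046, both opposite in sign to the fit over both runs; the cause was not tested. The count called between runs was 0 among DMSO, 10 µM or 100 µM arrays alone, which hold fewer arrays and called 16, 0 and 0 of all genes. With single arrays left out it was 0 to 1, beside 37 to 129 of all genes. For the interaction at 10 µM leaving out single arrays gave 0 to 1 called Nduf genes, where 2 to 116 of all genes were called. The median over Nduf genes was -0.039 to 0.14 there, and -0.01 to 0.182 at 100 µM. Unadjusted p under 0.05 was reached by 0 to 3 Nduf genes at each dose with single arrays left out. No paired analysis was possible because the title numbers differ between the dose groups.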
